A study of Mus musculus with 12 samples.

Results

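Cytosolic ribosomal protein genes encode the proteins of the large and small ribosomal subunits, and their messages were followed here through a 20-day pigmentation cycle of B16, a long-established line of mouse melanoma cells. A gene was taken when its annotated symbol had the form of an Rpl, Rplp or Rps gene and a probe was detected (detection p under 0.05) on at least 2 of the 12 arrays. The symbols matched 62 genes, and 56 of them had a detected probe, among 11470 genes measured in all. They comprised 31 genes of the large subunit, 22 of the small subunit and the 3 stalk genes. Rpl14, Rpl17, Rpl39l, Rpl6, Rps23 and Rps4l, the last a transcribed pseudogene, had 1 probe each, detected on at most 1 array. Genes without a probe under such a symbol, Rpl5, Rpl7, Rpl10, Rpl11 and Rps27 among them, are not analysed here.

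Total RNA was hybridised to 12 Illumina bead arrays, 2 for each of days 0, 4, 8, 12, 16 and 20, one from set 1 and one from set 2, and the sets were described as consecutive cycles. All cells were B16 in DMEM with fetal calf serum and carried no stated genetic change or drug. Per the protocol, cells seeded at 100 cells per cm2 were harvested on days 4, 8 and 12, labelled pigmented. Cells replated on day 12 at 10000 cells per cm2 were harvested on days 16 and 20, which were labelled depigmented like day 0. Pigmentation, time in culture and replating therefore cannot be told apart, and a separate density label of the arrays did not follow the protocol. Both arrays of a day thus belong to different cycles, and the labels do not say whether the second cycle was started independently of the first. All p-values rest on the spread between these arrays.

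Ribosomal proteins are made in equal numbers for each ribosome, and in most cells their messages are among the most abundant. Many of these messages begin with a terminal oligopyrimidine (TOP) tract, a C followed by a run of pyrimidines, through which mTORC1 and the RNA-binding protein Larp1 control their translation, and Larp1 also stabilises such messages. Unassembled ribosomal proteins can bind Mdm2 and so stabilise p53, and several genes have a paralogue whose product can take the parent's place.

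Values are log2 signals after background correction and quantile normalization, changes are log2 differences with their standard error (SE), and a gene is called when limma's p, adjusted over all 11470 genes of a comparison, is below 0.05. Array mean signals were highest on 1 array each of days 4 and 8 and lowest on both day 20 arrays, and 18508 to 19780 probes were detected per array. The number of arrays limits the precision. All 7 melanocyte markers were measured, with Pmel and Tyr higher on day 4 than on day 0 by 2.94 and 3.80. Of markers of other cells, 2 of 7 for leukocytes, 3 of 5 for fibroblasts, 1 of 4 for keratinocytes and 1 of 4 for endothelium were detected. Ptprc, Cd3e, Col1a2, Krt5, Krt14 and Pecam1 were not detected on enough arrays. Of the leukocyte markers Fcer1g was 1.37 higher on day 4 than on day 0, while Lyz2 was at -0.24 without a call on day 4 and lower by -0.49 on day 8. Pdgfra was at least 3.31-fold higher on day 0, being not well above background on either day 4 array. Their part in the changes below was not tested, and in bulk RNA fewer cells of a type and less RNA per cell cannot be told apart.

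Start-site sequences are shown for the genes whose changes carry the account below, together with Rps21, which hardly moved. RefSeq promoter windows (GRCm38.p6) matched 47 of the 56 genes. Each printed window runs 5′ to 3′ on the gene's strand from 60 bases before to 20 bases into the transcript, and capitals mark a TOP-like run, defined as a C with at least 4 pyrimidines after it that begins within 5 bases of the listed start.
Rpl22 (chr4:152324376-152324455, plus strand): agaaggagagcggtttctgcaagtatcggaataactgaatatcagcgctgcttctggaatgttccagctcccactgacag
Rpl22 (chr4:152325666-152325745, plus strand): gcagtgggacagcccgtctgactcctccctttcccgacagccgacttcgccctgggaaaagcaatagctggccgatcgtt
Rpl22l1 (chr3:28805448-28805527, plus strand): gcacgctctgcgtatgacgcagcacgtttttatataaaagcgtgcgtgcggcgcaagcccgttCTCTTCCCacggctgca
Rplp0 (chr5:115559407-115559486, plus strand): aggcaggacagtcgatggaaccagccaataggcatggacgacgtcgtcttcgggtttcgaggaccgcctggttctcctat
Rpl26 (chr11:68901506-68901585, plus strand): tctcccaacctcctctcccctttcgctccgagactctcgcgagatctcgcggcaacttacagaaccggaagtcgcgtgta
Rps6 (chr4:86857348-86857427, minus strand): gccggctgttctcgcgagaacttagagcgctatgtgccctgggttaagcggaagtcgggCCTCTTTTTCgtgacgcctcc
Rps9 (chr7:3703981-3704060, plus strand): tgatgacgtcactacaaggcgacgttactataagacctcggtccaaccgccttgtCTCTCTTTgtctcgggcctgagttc
Rps27l (chr9:66946026-66946105, plus strand): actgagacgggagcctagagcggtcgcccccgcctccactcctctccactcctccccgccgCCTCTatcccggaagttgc
Rps21 (chr2:180257319-180257398, plus strand): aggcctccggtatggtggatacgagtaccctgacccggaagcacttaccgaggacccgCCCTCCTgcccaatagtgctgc
Such a run was found in 22 of the 47 genes (46.8%), against 5718 of all 27025 genes with a window (21.2%), with a gene counted when any of its listed starts had it. Over the full window of 250 bases before and 50 after the start, read on both strands, the ETS factor core CCGGAAG was in 20 of 47 genes (42.6%), against 9.93% of all genes. The YY1 core ATGGCG was in 13 (27.7%), against 10.2%, and the TATA-like TATAAA in 6 (12.8%), against 15.7%. None of these 3 words contains another. These are letter matches only. The capitals show the TOP-like runs of Rpl22l1, Rps6, Rps9, Rps27l and Rps21. The printed windows of Rpl22, Rplp0 and Rpl26 hold no run that begins within 5 bases of the listed start. Their pyrimidine runs farther from it were not counted, and a gene without a TOP-like run here may still have a TOP tract. Rps27l and Rps21 each have a further listed start without a run, which is not printed.

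Read by the brightest probe of each gene, ribosomal protein genes moved in opposite directions and by less than most genes. Other detected probes of some of these genes moved more, as given below. Over the 6 days 51 of 56 were called, against 84.7% of all genes. The range between the highest and lowest day mean had a median of 0.47 (0.13 to 1.73) over the 56 genes, against 0.99 over all genes, and it exceeded 1 in 7 of the 56 (12.5%), against 49.3% of all genes. Among probes with a mean log2 signal of 13 or more, the median range was 0.45 for 32 ribosomal protein genes and 0.73 for 84 other genes. Below 13 it was 0.52 for 24 ribosomal protein genes and 0.99 for 11330 others. Of the 7 ribosomal protein genes with a range over 1, 6 were below 13. The within-day SD had a median of 0.07 over the 56 genes, below the median range of 0.47. A change of at least 0.5 was seen in 13 of 56 genes (23.2%) on day 20 against day 0, against 52.0% of all genes.

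**Figure D1:**
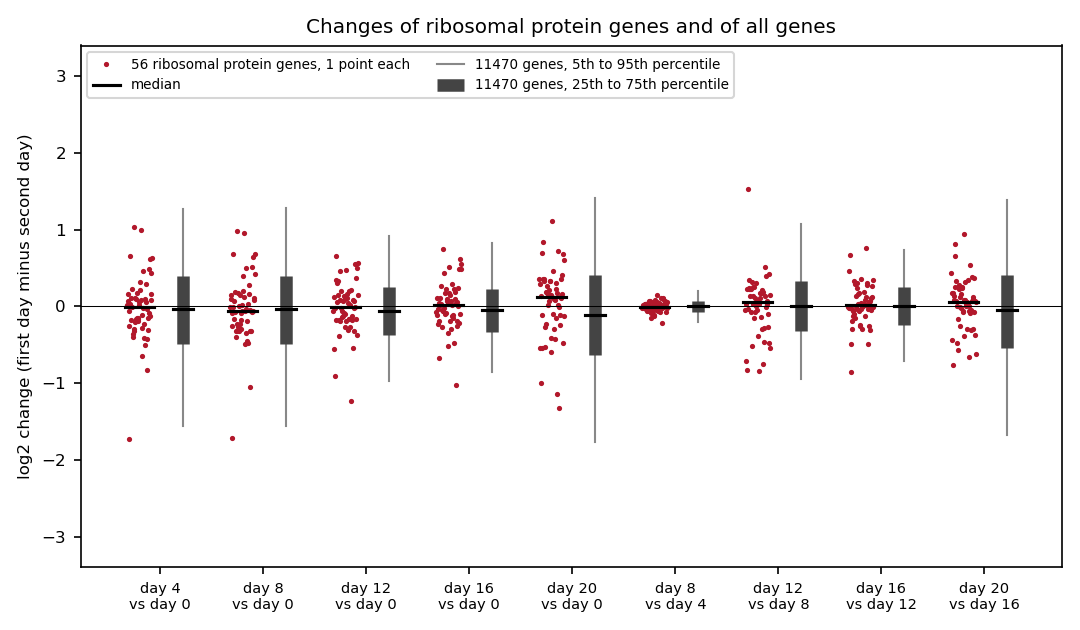
Log2 change of the 56 ribosomal protein genes (red points, median as a black bar) beside the spread of all 11470 genes (grey line, 5th to 95th percentile; dark box, 25th to 75th; bar, median) in 9 comparisons of days. Most red points lie within 0.5 of 0, Rpl22 stands lowest at -1.73 on day 4 and at -1.71 on day 8, and on day 8 against day 4 no point passes 0.22 in size.

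Day 20 was the day of the highest mean for 26 of the 56 genes, and day 0 the lowest for 15. These counts hold under quantile normalization, and the matching shares over all genes were not counted. Together the probes of these genes took 5.74% and 5.79% of the signal of detected probes on the day 20 arrays, against 4.95% to 5.30% on the other 10 arrays. This share was taken before normalization, and the day 20 arrays had the lowest mean signals. Whether it came from more signal of these probes or less of others was not tested. The genes did not share 1 profile: the correlation of a gene's 6 day means with the profile of the median gene had a median of 0.46, was above 0.8 for 14 genes and below 0 for 19. Points of that correlation share the same arrays, and the value is a description.

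**Figure D2:**
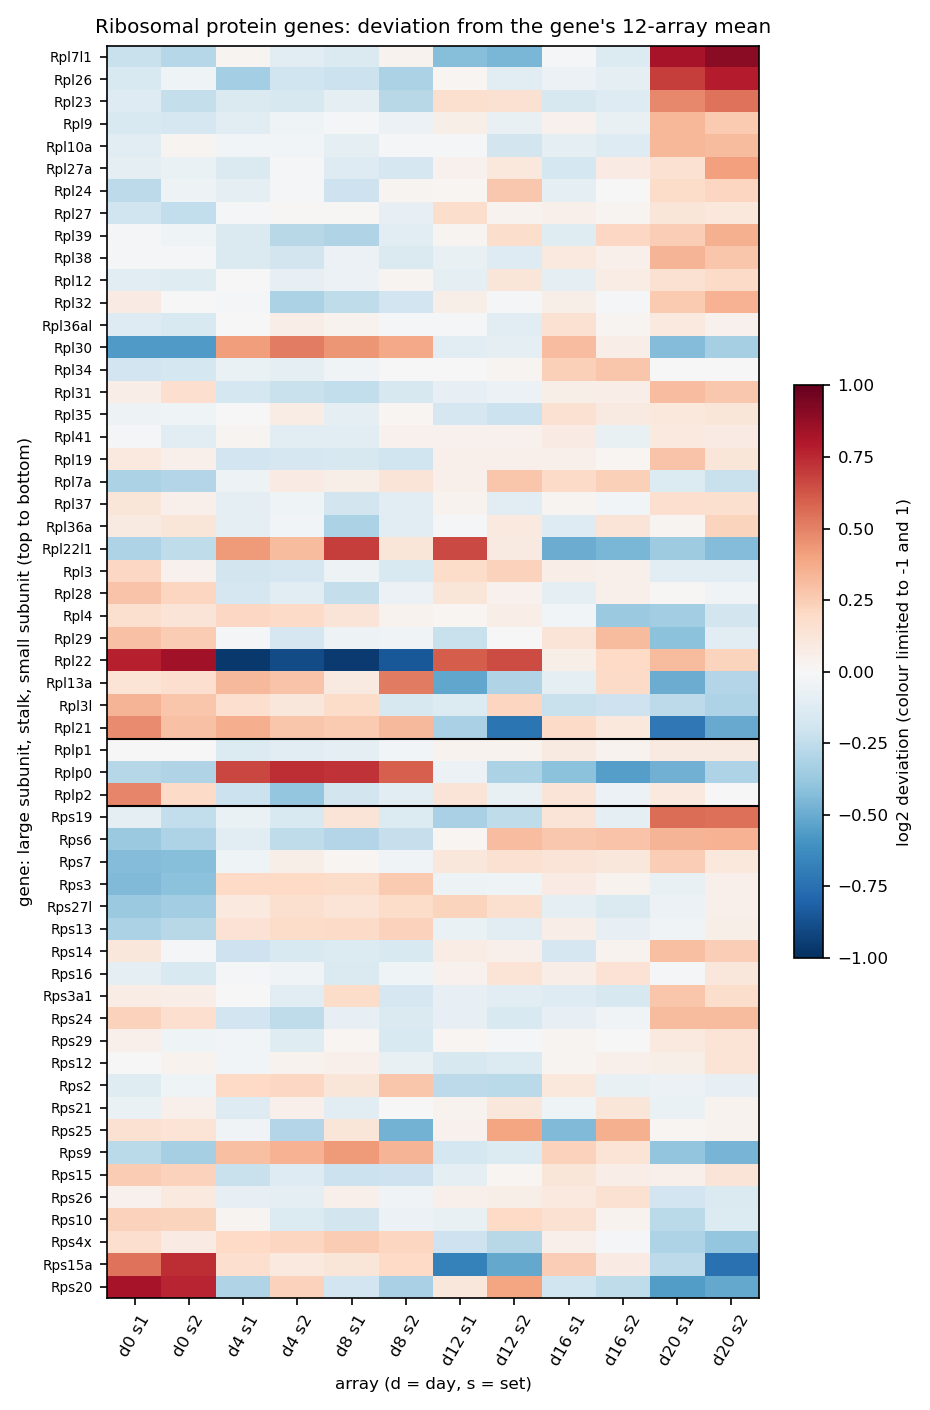
Deviation of each gene (rows) from its own mean over the 12 arrays (columns, by day and set), in log2 with the colour limited to -1 and 1, grouped into large subunit, stalk and small subunit and sorted by the change on day 20. Both arrays of a day look alike, days 4 and 8 share their pattern, and single rows such as Rpl22, Rplp0, Rps15a and Rpl7l1 carry most of the colour.

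Days 4 and 8 gave no call between them. No gene was called on day 8 against day 4, with 0% of all genes higher and 0% lower by limma. Unadjusted p under 0.05 was reached by none of the 56 genes and by 307 of the 11470. The largest difference among the 56 genes was 0.22.

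The strongest change belonged to Rpl22, a large-subunit RNA-binding protein that represses its own paralogue Rpl22l1 in mouse. Its log2 signal was 10.84 and 10.91 on day 0, 9.11 and 9.18 on day 4, 9.11 and 9.22 on day 8, 10.68 and 10.72 on day 12, 10.13 and 10.27 on day 16 and 10.39 and 10.29 on day 20. Levels were low on all 4 arrays of days 4 and 8, without overlap with any other day, and regained most of the day 0 level on day 12. The change was -1.73 ± 0.08 on day 4 (adjusted p = 3.62e-14) and -1.71 ± 0.08 on day 8 against day 0. Day 12 was above day 8 by 1.53 ± 0.08 (adjusted p = 1.02e-12), and days 16 and 20 remained below day 0 by -0.67 ± 0.08 and -0.54 ± 0.08. These 5 calls held in all 23 alternatives, and the day 12 change against day 0 was called in 4 of them, at -0.36 under median centring.

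Rpl22l1, which can replace Rpl22 in the ribosome, was high on days 4, 8 and 12. Its log2 signal was 7.96 and 8.02 on day 0, 8.70 and 8.59 on day 4, 8.96 and 8.39 on day 8, 8.93 and 8.35 on day 12, 7.77 and 7.81 on day 16 and 7.91 and 7.84 on day 20. All 6 arrays of those days were above all 6 arrays of days 0, 16 and 20, and sets differed by more than 0.5 on days 8 and 12. Against day 0 the change was 0.66 ± 0.16 on day 4, 0.69 ± 0.16 on day 8 and 0.66 ± 0.16 on day 12 (adjusted p = 0.00134). Without the day 12 array of set 1 the day 12 change was 0.37 and no longer called. Day 16 was below day 12 by -0.85 ± 0.16 (adjusted p = 0.000159). Rpl22 and Rpl22l1 thus went in opposite directions on days 4 and 8, whereas on day 12 both were near their higher level, Rpl22 at -0.18 ± 0.08 from day 0 (adjusted p = 0.0608).

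**Figure D3:**
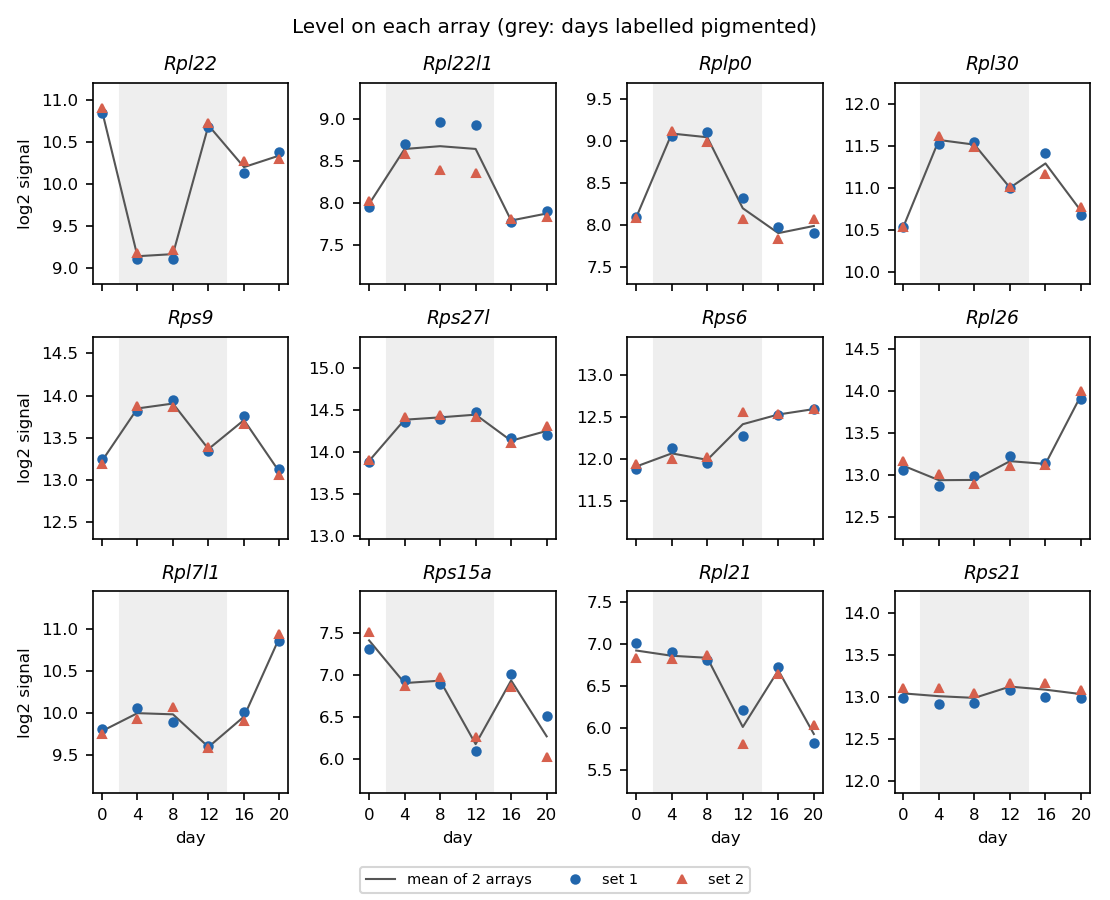
Log2 signal of 12 ribosomal protein genes on each array (circles, set 1; triangles, set 2; line, mean of both arrays) by day, on axes of equal height, with days labelled pigmented in grey. Rpl22 dips to 9.14 on day 4 while Rpl22l1 and Rplp0 stand high, Rpl26 and Rpl7l1 step up on day 20, and Rps21 stays level.

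The 3 stalk genes, whose proteins recruit the GTPases of elongation, changed in different directions. Their probes were read at unlike levels: by mean signal Rplp0 was at percentile 63.4 of all genes, Rplp2 at 99.5 and Rplp1 at 100. Rplp0, the base of the stalk, had a log2 signal of 8.10 and 8.08 on day 0, 9.05 and 9.12 on day 4, 9.10 and 8.98 on day 8, 8.32 and 8.07 on day 12, 7.97 and 7.83 on day 16 and 7.90 and 8.07 on day 20. Its 4 arrays of days 4 and 8 lay above all others. The change was 1.00 ± 0.10 on day 4 (adjusted p = 3.25e-08) and 0.95 ± 0.10 on day 8, and day 12 was below day 8 by -0.85 ± 0.10. Rplp2 went the other way, lower on every later day than on day 0, by -0.64 ± 0.10 on day 4 and -0.29 ± 0.10 on day 20. Without the day 0 array of set 1 its changes on days 12, 16 and 20 were -0.16, -0.15 and -0.14, with no call. Those calls were also lost without the set 2 array of the later day, at -0.21, -0.21 and -0.24. Rplp1, the partner of Rplp2, was among the least variable members, between -0.12 ± 0.07 and 0.10 ± 0.07 against day 0 with no call. It was the brightest of all genes by mean signal, a rank at which quantile normalization leaves little difference between arrays.

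In the large subunit, Rpl30, which in yeast regulates the splicing of its own transcript, had the largest rise of the 56 genes on days 4 and 8. Its log2 signal was 10.54 and 10.54 on day 0, 11.52 and 11.61 on day 4, 11.55 and 11.48 on day 8, 10.99 and 11.01 on day 12, 11.41 and 11.17 on day 16 and 10.67 and 10.78 on day 20. Every array of a later day was above both day 0 arrays. Changes against day 0 were 1.03 ± 0.08 on day 4 (adjusted p = 2.11e-10), 0.75 ± 0.08 on day 16 and 0.19 ± 0.08 on day 20. Its day 12 change was 0.46 ± 0.08, and was 0.12 without a call with the mean of its probes. On day 20 that mean gave a fall of -0.20, and median centring gave 0.03 without a call. Rpl7a rose by 0.32 to 0.52 on days 4 to 16 and was back at 0.13 ± 0.08 on day 20.

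Other large-subunit genes moved most on day 20. Rpl26, whose protein in human cells binds the p53 message, had a log2 signal of 13.05 and 13.16 on day 0, 12.86 and 13.01 on day 4, 12.99 and 12.89 on day 8, 13.22 and 13.10 on day 12, 13.15 and 13.11 on day 16 and 13.90 and 13.99 on day 20. Both day 20 arrays were above the other 10, by 0.84 ± 0.07 over day 0 (adjusted p = 1.8e-09) and 0.82 ± 0.07 over day 16. Rpl10a was higher on day 20 by 0.36 ± 0.07 over day 0 and 0.43 ± 0.07 over day 16. Rpl23, an Mdm2-binding protein, rose by 0.70 ± 0.07 on day 20 against day 0, a change that read -0.13 when its 4 probes were averaged. Among fallers, Rpl21 had a mean log2 signal of 6.54, at percentile 38.1 of all genes. It was lower on days 12 and 20 by -0.91 ± 0.15 and -0.99 ± 0.15, with day 16 at -0.24 ± 0.15. Rpl13a, which in human myeloid cells silences interferon-induced messages, followed the same alternation, at -0.56 ± 0.12, -0.11 ± 0.12 and -0.55 ± 0.12 on days 12, 16 and 20.

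In the small subunit, Rps6, the protein that S6 kinases phosphorylate, was higher than on day 0 from day 12 onward. Its log2 signal was 11.88 and 11.94 on day 0, 12.13 and 11.99 on day 4, 11.95 and 12.02 on day 8, 12.27 and 12.55 on day 12, 12.52 and 12.54 on day 16 and 12.59 and 12.59 on day 20. The 6 arrays of days 12 to 20 were all above the 6 arrays of days 0 to 8. Changes against day 0 were 0.50 ± 0.08, 0.62 ± 0.08 and 0.68 ± 0.08 on days 12, 16 and 20 (adjusted p = 1.61e-07 on day 20). Day 12 was above day 8 by 0.42 ± 0.08, but by 0.07 without a call under median centring. Rps7, another Mdm2-binding protein, was higher than day 0 on all 5 later days, by 0.42 to 0.60. Rps3, which also acts in DNA repair, was higher on all 5 as well, by 0.37 to 0.65, with days 12 and 20 at 0.13 and 0.10 without a call under median centring.

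Rps9 alternated, at 0.63 ± 0.07 and 0.68 ± 0.07 on days 4 and 8, 0.14 ± 0.07 on day 12, 0.49 ± 0.07 on day 16 and -0.13 ± 0.07 on day 20 against day 0. Rps19, the gene most often mutated in Diamond-Blackfan anaemia, was 0.72 ± 0.09 higher on day 20 (adjusted p = 2.2e-07) and at -0.12 to 0.19 on days 4 to 16 without a call. Its other, dimmer probe was higher than day 0 on days 4 and 8 by 1.02 and 1.07, both called. Rps15a, whose mean signal was at percentile 41 of all genes, was lower than day 0 on every later day. Its log2 signal was 7.31 and 7.51 on day 0, 6.94 and 6.87 on day 4, 6.89 and 6.97 on day 8, 6.10 and 6.26 on day 12, 7.02 and 6.86 on day 16 and 6.51 and 6.03 on day 20, and both day 0 arrays were above the other 10. Changes were -0.51 ± 0.15 on day 4, -1.23 ± 0.15 on day 12 (adjusted p = 7.38e-07) and -1.14 ± 0.15 on day 20. Without the day 0 array of set 2 the calls of days 4, 8 and 16 were lost, at -0.41, -0.38 and -0.38. The day 8 call was also lost without the day 8 array of set 1 (-0.44), and the day 16 call without the day 16 array of set 2 (-0.40). Rps4x, the X-linked small-subunit gene, was lower on days 12 and 20 by -0.37 ± 0.07 and -0.48 ± 0.07.

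Rps20, whose protein binds Mdm2, had a dim probe, not well above background on either array of days 8, 16 and 20. Against those days, day 0 was at least 1.68-, 1.73- and 1.72-fold higher (adjusted p = 2.51e-05, 7.19e-05 and 9.83e-07). In this bound the brighter day's mean is set against a dim-day mean in which each array counts with its lowest detected signal, or with the probe's own signal where that is higher. Day 4, with 1 array detected, was lower than day 0 by -0.83 ± 0.18.

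Of the other paralogues, Rps27l, a p53-induced relative of Rps27, was higher than day 0 on all later days, by 0.49 ± 0.07 on day 4, 0.55 ± 0.07 on day 12 (adjusted p = 7.92e-07) and 0.24 ± 0.07 on day 16. Under median centring days 16 and 20 were at 0.08 and 0.12 without a call. Rpl7l1, a relative of Rpl7 found on large-subunit precursors in the human nucleolus, was 1.11 ± 0.08 higher on day 20 than on day 0 (adjusted p = 7.79e-11) and 0.94 ± 0.08 higher than on day 16. With the mean of its probes the step over day 16 was 0.19 and not called. Its other probe was called in the opposite direction on day 20 against day 16, at -0.57. On day 20 against day 0 that probe was at -0.27 without a call. Rpl36al was called higher than day 0 on days 4, 16 and 20, by 0.17, 0.23 and 0.21. The day 4 call was lost without the intensity trend, and those of days 16 and 20 under median centring. Its parent Rpl36a was called against day 0 on day 8 alone, at -0.32 ± 0.09. That call was lost under median centring (-0.16) and in the authors' value table (-0.26). Rpl3 was lower on days 4, 8 and 20 by -0.30 ± 0.07, -0.23 ± 0.07 and -0.24 ± 0.07. Without the day 0 array of set 1 days 8 and 20 were at -0.15 and -0.16 with no call. Its muscle paralogue Rpl3l was detected on 3 arrays, both of day 0 among them, which were at least 1.09- and 1.08-fold above days 16 and 20 (adjusted p = 0.0154 and 0.00413). The day 16 call was lost without the day 0 array of set 1 or either day 16 array, the day 20 call under median centring, and both in the authors' value table, where Rpl3l showed no difference. Rpl39 was 0.33 ± 0.09 higher on day 20, against 0.01 without a call under median centring, and Rpl39l was not detected.

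The genes that moved least were Rps21, Rpl41, Rps29, Rplp1 and Rps16, whose day means spanned 0.13, 0.14, 0.19, 0.22 and 0.23. Rplp1, Rpl41 and Rps29 were among the brightest of all genes, at percentiles 100, 99.99 and 99.97 of mean signal. At such ranks quantile normalization gives nearly the same value on every array, so a small span there does not by itself show a stable message. Rps21 lay between 12.92 and 13.17 on all 12 arrays. Of these 5, Rplp1 and Rps16 were among the 51 called over the 6 days. The genes not called were Rpl41, Rps12, Rps21, Rps25 and Rps29.

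Called genes went both ways in each comparison with day 0. On day 4 against day 0, 13 genes were higher and 16 lower (29 of 56), against 29.5% and 34% of all genes. Beside those described above, the largest called changes were a rise of Rps13 (0.46 ± 0.07, but a fall of -0.26 with the mean of its probes) and falls of Rps24 (-0.42 ± 0.07, but 0.054 with the mean of its probes) and Rps15 (-0.42 ± 0.07). Day 8 gave 13 higher and 16 lower, against 29.3% and 33.9%. Rpl28 was lower by -0.40 ± 0.07 there, and by -0.05 without a call with the mean of its probes. The early risers Rpl30, Rplp0, Rpl22l1, Rps9, Rps3 and Rps27l were thus set against falls of Rpl22, Rps20, Rplp2, Rps15a and Rps15.

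On day 12 against day 0, 13 were higher and 12 lower, against 22.8% and 29.5% of all genes. On day 16 there were 13 higher and 8 lower, against 20.9% and 26.6%. Rpl4 was lower on day 16 by -0.34 ± 0.09, a call lost without the day 16 array of set 2 (-0.17). Day 20 gave 25 higher and 14 lower, against 29.3% and 38.7%, with a median change of 0.13 over the 56 genes and -0.11 over all genes. The large subunit had 17 higher and 8 lower of 31 on day 20, and the small subunit 8 higher and 5 lower of 22. Medians on days 4, 8, 12 and 16 were -0.01, -0.06, -0.01 and 0.02, against -0.04, -0.04, -0.06 and -0.05 over all genes.

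Between successive harvests, day 12 against day 8 had 16 higher and 12 lower, against 27.2% and 26.2% of all genes. Beside the falls of Rplp0, Rpl21, Rps15a and Rpl13a, Rps9 and Rpl30 were lower by -0.54 ± 0.07 and -0.51 ± 0.08. Day 16 against day 12, across the replating, had 14 higher and 7 lower, against 20.7% and 19.7%. Rps15a and Rpl21 were higher by 0.76 ± 0.15 and 0.67 ± 0.15. Day 20 against day 16 had 16 higher and 12 lower, against 29.9% and 35%. Rpl21, Rps15a and Rps9 were lower there by -0.76 ± 0.15, -0.67 ± 0.15 and -0.62 ± 0.07. The fall of Rps15a was not called with the density label as a term.

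The balance of higher and lower calls depended on the scaling. With arrays centred on their median signal instead of quantile normalized, the genes higher and lower against day 0 were 23 and 9 on day 4, 20 and 12 on day 8, 6 and 29 on day 12, 8 and 18 on day 16, and 9 and 17 on day 20. Day 12 against day 8 then had 2 higher and 28 lower, and day 16 against day 12 had 17 higher and 4 lower. That centring gave the 56 genes a median of -0.20 on day 12 and -0.14 on day 16 against day 0, beside -0.13 and -0.10 for all genes. In the authors' value table the splits were 16 and 15 on day 20 against day 0, and 8 and 11 on day 12 against day 8. The day 20 majority of higher calls thus became a majority of lower calls under median centring. Calls with 1 direction under all 3 scalings were 12 higher and 9 lower on day 4, 12 and 12 on day 8, 6 and 9 on day 12, 8 and 6 on day 16, and 9 and 13 on day 20. On day 20 the 9 were Rpl10a, Rpl23, Rpl26, Rpl38, Rpl7l1, Rpl9, Rps19, Rps6 and Rps7. For day 12 against day 8 they were Rpl22 alone and 11 lower genes. Higher and lower calls were not counted over all genes under the other scalings. These splits therefore have no share of all genes beside them and are not a result about this family alone.

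**Figure D4:**
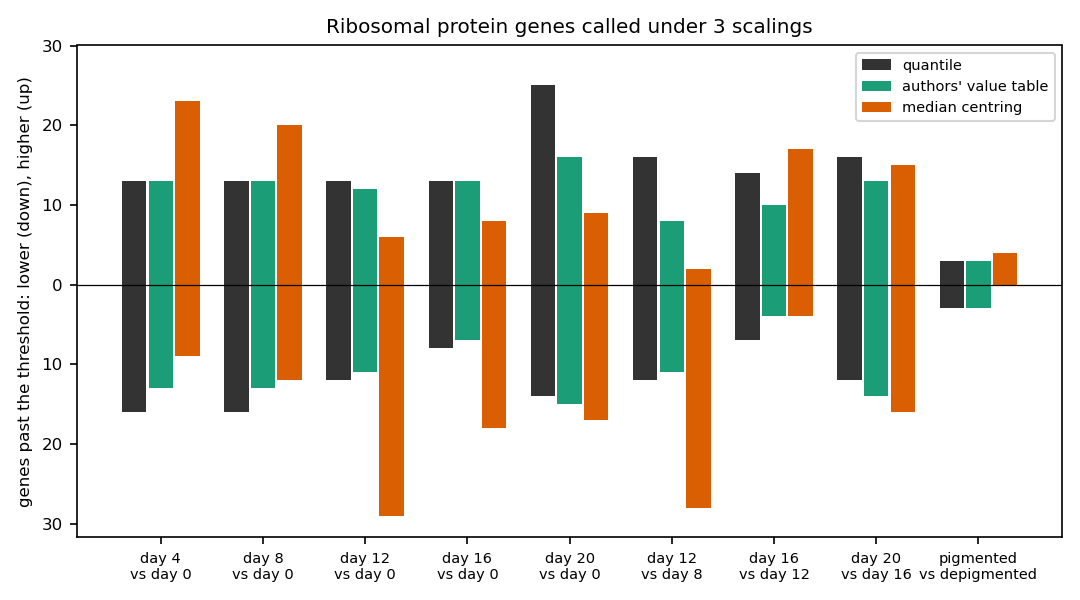
Number of ribosomal protein genes called higher (upward bars) and lower (downward bars) in each comparison under quantile normalization (dark), in the authors' value table (green) and under median centring (orange). The bars of day 12 against day 8 run from 16 higher and 12 lower to 2 higher and 28 lower, and those of day 20 against day 0 from 25 and 14 to 9 and 17.

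Pigmented against depigmented days, a model whose spread includes that between days, gave 3 higher and 3 lower genes, against 7.73% and 9.16% of all genes. Rpl22l1 had a lowest, median and highest log2 signal of 8.35, 8.64 and 8.96 on the 6 pigmented arrays, against 7.77, 7.87 and 8.02 on the 6 depigmented ones, a difference of 0.77 ± 0.14 (adjusted p = 0.0037). Rplp0 had 8.07, 9.02 and 9.12 on pigmented arrays and 7.83, 8.02 and 8.10 on depigmented arrays, which overlap through day 12, with a difference of 0.78 ± 0.19 (adjusted p = 0.0173). Rps27l had 14.35, 14.41 and 14.47 on pigmented arrays and 13.88, 14.13 and 14.30 on depigmented arrays, a difference of 0.32 ± 0.09. Its call was lost when either array of day 0 or of day 8, or the day 4 array of set 2, was left out (differences of 0.28 to 0.33). The lower calls of Rpl31 (-0.31 ± 0.08), Rps24 (-0.30 ± 0.09) and Rps15 (-0.28 ± 0.08) were lost under median centring, which gave 4 higher and 0 lower. With the mean of its probes Rpl31 was at 0.23 without a call. Rpl22 differed by -0.80 ± 0.32 without a call (adjusted p = 0.0947), with day 12 apart from days 4 and 8.

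Probes of 1 gene did not always move together. Of the 56 genes 19 had more than 1 detected probe, 26 probes beside the brightest one that stands for the gene. On day 20 against day 0 those 26 had a median change of -0.50, with 8 higher and 13 lower, against 29.3% and 38.7% of all genes. Of 19 such probes in genes that were called, 8 were called in the opposite direction. Calls of these other probes came from a fit of all 22978 detected probes, with p adjusted over those probes. On day 4 the median of the 26 was 0.43, with 17 higher and 2 lower, against 29.5% and 34% of all genes. The matching shares over all probes were not counted. The brightest probe of Rpl27a was 0.36 higher on day 20, and its other 3 probes were at -0.73, -0.77 and -1.21. Rpl23 had 2 probes at 0.70 and 0.65 and 2 at -0.94 and -0.94. For Rpl29 the brightest probe was at -0.53 and the other at 0.83. The 2 other probes of Rps24 were at 0.86 and -0.78. In contrast, the probes of Rps19 (0.72 and 0.85), Rps3 (0.41 and 0.48) and Rpl21 (-0.99, -0.82 and -1.15) shared their direction on day 20. Rpl22, Rpl22l1, Rpl26, Rps6, Rps7, Rps15a and Rps27l had 1 detected probe each, so this check was not possible for them.

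**Figure D5:**
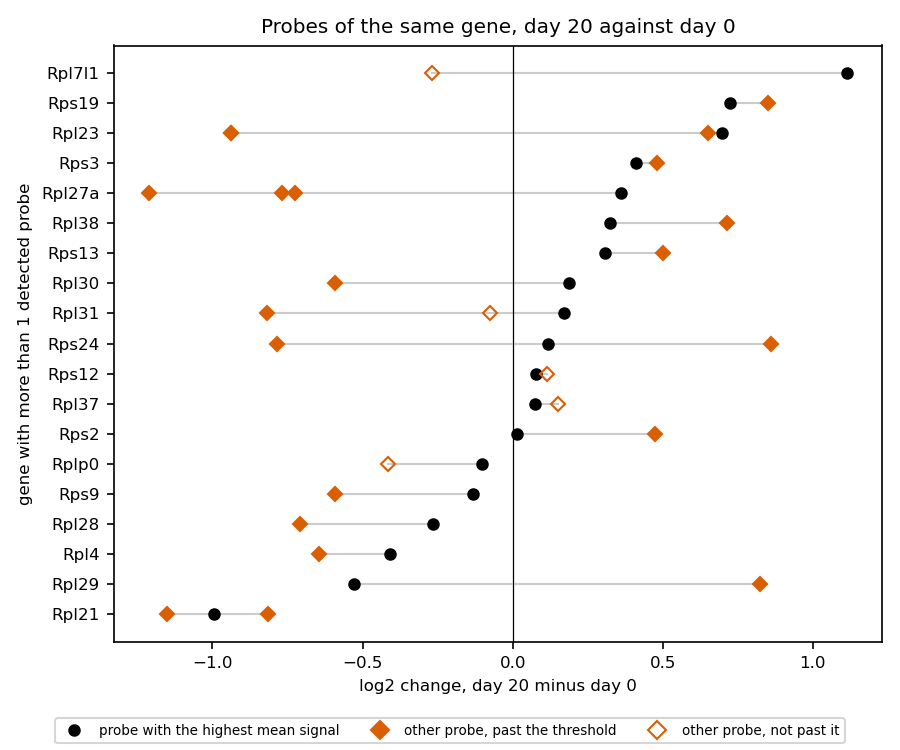
Log2 change on day 20 against day 0 for every detected probe of the 19 genes with more than 1 (circle, brightest probe; filled diamond, other probe past the threshold; open diamond, other probe not past it), joined per gene. Rpl27a spreads from 0.36 to -1.21 and Rpl29 from -0.53 to 0.83, while the 2 probes of Rps3 and of Rps19 lie close together.

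Genes linked to the ribosome behaved differently from list to list. Of 34 ribosome biogenesis genes 30 were measured. On day 4 against day 0, 26 were higher and 0 lower (median 0.95), against 29.5% and 34% of all genes. On day 12 against day 8, 24 of the 30 were lower and 0 higher (median -0.75), against 26.2% and 27.2% of all genes. The median of the 56 ribosomal protein genes was 0.06 there. On day 20 against day 0, 23 were higher and 4 lower, against 29.3% and 38.7% of all genes. Under median centring and in the authors' value table the day 12 against day 8 split was 0 higher and 29 lower, and 0 higher and 23 lower. Nop56, a box C/D snoRNP core protein, was 2.37 ± 0.09 higher on day 8 than on day 0. Rrp12, a pre-ribosome export factor, was 2.03 ± 0.08 higher on day 20 than on day 0. Pes1, which acts in large-subunit maturation, changed by -3.74 ± 0.11 on day 20 against day 16.

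Translation factors and other known TOP messages (21 of 23 measured) had 10 higher and 7 lower on day 4, and 2 higher and 13 lower on day 20 against day 0 (median -0.26), where the ribosomal protein genes had a median of 0.13. Of all genes 29.5% were higher and 34% lower on day 4, and 29.3% and 38.7% on day 20. On day 20 against day 0 the changes in this list ran from -3.78 to 1.48, and Eef2, the translocation factor, was higher by 1.48 ± 0.09. Hnrnpa1 changed by -3.03 ± 0.09 on day 20 against day 16, where the largest fall in the list was -3.99. Of 25 mTOR pathway and TOP regulators 22 were measured. They had 11 higher and 6 lower on day 4 and 6 higher and 6 lower on day 20, beside the same shares of all genes. Sesn2, a stress-induced inhibitor of mTORC1, was 2.35 ± 0.13 higher on day 20 than on day 0, and Tsc2, another inhibitor, changed by -1.46 ± 0.10. The 73 mitochondrial ribosomal protein genes had 10 higher and 34 lower on day 12 against day 8 (median -0.23), against 27.2% and 26.2% of all genes. Mrpl51 was 2.12 ± 0.19 higher on day 4 than on day 0, and Mrpl48 changed by -1.93 ± 0.08 on day 20 against day 0. Rpsa, a ribosomal protein gene outside the symbol pattern, was measured near background without a call.

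Genes with and without a TOP-like run at a listed start are described side by side, with no test between them. On day 20 against day 0 the 22 genes with a run had 9 higher and 6 lower (median 0.12), and the 25 genes with a window and no run had 13 higher and 4 lower (median 0.17). Of all genes 29.3% were higher and 38.7% lower. On day 4 the counts were 5 and 8 with a run (median -0.02), and 7 and 3 without (median 0.06), against 29.5% and 34% of all genes. Of 15 genes mutated in Diamond-Blackfan anaemia 9 were measured, with 5 higher and 2 lower on day 20 against day 0, against 29.3% and 38.7% of all genes.

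Outside the family, the genes whose 6 day means correlated best with the profile of the median ribosomal protein gene, among 5642 with a range of at least 1, were Rab11fip3, H2-D1, Lgmn, Gm15107, Sp140, Zbtb25, Vamp5 and Lonrf3, with r between 0.985 and 0.999. The median profile itself lay between -0.05 and 0.09 around 0, while H2-D1 spanned 2.82.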

How the data were processed

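RNA of 12 B16 samples was measured on Illumina bead arrays. The authors deposited a linear signal intensity and a detection p-value per probe, per the file headers, and a value table of linear intensity, each column of which was a straight line of 1 signal column. Software versions behind both tables are not given in the sources used here. Signals were background corrected from the detection p-values with an offset of 16 and quantile normalized with limma 3.58.1 in R 4.3.3. Probe names came from the platform annotation, and no symbol changed on update through RefSeq. A gene was represented by its brightest detected probe. Day was a factor over all 12 arrays in lmFit and eBayes with an intensity trend, a 2-group model served the pigmentation labels, tests were two-sided, and Benjamini-Hochberg adjustment ran over all 11470 genes. For probes other than the brightest, the day model was fitted to all 22978 detected probes and adjusted over those. Members, gene lists and the rule for named genes (up to 6 largest called rises and falls per comparison, paralogues, stalk, Rps6, Mdm2-binding genes, least variable genes, genes whose probes disagree, and up to 4 genes of each related list) were chosen with earlier results of these data known. Alternatives were other background, scaling, probe and spread settings, a density term, set as a block, and each array left out. Set numbers of days 4, 12 and 20 were exchanged between both tables, and the signal table's were used. Limited precision comes from 2 arrays per day.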

Additional observations from a re-analysis of the deposited data

How the results depend on the processing

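Of 308 changes followed through 23 alternatives, 226 were called, and 155 of the 308 stayed on the same side of the threshold throughout. Direction was compared only for changes called in the main fit. A call was lost 516 times, gained 54 times and turned in direction 55 times, and the cause was not tested. Direction held throughout for 27 of 39 called genes on day 20 against day 0 and 17 of 28 on day 12 against day 8, with Rpl3l, at the floor of the authors' value table, counted as not held on day 20. Averaging a gene's probes changed the sign on day 4 against day 0 of Rpl31 (0.36), Rps13 (-0.26) and Rps24 (0.054), and on day 8 against day 0 of Rpl31 (0.31), Rpl37 (0.082) and Rps13 (-0.055), and on day 12 against day 0 of Rps13 (-0.31) and Rps2 (0.086). It changed the sign on day 16 against day 0 of Rps13 (-0.091), and on day 20 against day 0 of Rpl23 (-0.13), Rpl27a (-0.59), Rpl29 (0.15), Rpl30 (-0.20) and Rpl31 (-0.24), and on day 12 against day 8 of Rpl23 (-0.28), Rpl27a (-0.25) and Rpl28 (-0.11). It changed the sign on day 20 against day 16 of Rpl23 (-0.062), Rpl27a (-0.42), Rpl29 (0.11) and Rpl31 (-0.38), and on pigmented against depigmented days of Rpl31 (0.23). Median centring over all probes, and over probes without a ribosomal protein symbol, changed the sign on day 12 against day 0 of Rps16 (-0.017 and -0.016). It changed the sign on day 20 against day 0 of Rpl12 (-0.0011, on the second only), Rpl32 (-0.034 and -0.037), Rpl35 (-0.051 and -0.053), Rpl36al (-0.084 and -0.087), Rps14 (-0.035 and -0.038) and Rps16 (-0.12 and -0.12). It changed the sign on day 12 against day 8 of Rpl19 (-0.13 and -0.13), Rpl24 (-0.13 and -0.14), Rpl26 (-0.13 and -0.13), Rpl27a (-0.042 and -0.044), Rpl28 (-0.036 and -0.039), Rpl32 (-0.074 and -0.077), Rpl36a (-0.10 and -0.11), Rps14 (-0.035 and -0.038), Rps15 (-0.15 and -0.15) and Rps16 (-0.17 and -0.17). The number of genes called moved by over 1.5 times in 2 settings that kept all arrays: day 12 against day 8 gave 17 without the intensity trend, against 28, and pigmented against depigmented days gave 2 without a filter on dim probes, against 6. Leaving out 1 array gave 3 to 9 calls on pigmented against depigmented days, with 3 without either day 0 array, either day 8 array or the day 4 array of set 2. Elsewhere the counts without 1 array lay within 1.5 times of the count with all. With set as a replicate block, 52 of 56 genes were called over the 6 days, 32 on day 4 and 40 on day 20 against day 0, against 51, 29 and 39, and no count moved by over 1.5 times. Set was not a block in the main fit. By the signal table's set numbers, deviations from the day means correlated between -0.03 and 0.27 for arrays of 1 set, above 0.1 in 8 of 15 pairs. Whether the sets pair the arrays is not settled by these values, as set numbers of days 4, 12 and 20 differ between both tables. With 2 arrays per day, and probes of Rps20 and Rpl3l near background, small changes of these genes are at the limit of what the arrays resolve.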
